A study of Mus musculus with 16 samples.

Results

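DNA replication and S-phase genes were followed across RNA sequencing of mouse small intestinal organoids with and without the autophagy gene Atg16l1 and with and without IL-22. The 45 genes were listed by symbol from the replication machinery and its nucleotide supply, by their known roles. They are 6 subunits of the MCM2-7 helicase, 4 origin licensing genes, 6 genes of CMG helicase assembly, 8 polymerase and primase subunits, 6 genes of the sliding clamp and its loader, 4 genes of single-strand binding and Okazaki fragment processing, 5 nucleotide supply genes, 3 G1/S control genes and 3 genes for chromatin behind the fork. All 45 were among the 49585 genes of the count table, and all 45 were among the 12559 genes that passed the filter on low counts.

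A cell licenses its replication origins in G1 by loading MCM2-7 rings with ORC, Cdc6 and Cdt1, and turns them into active helicases at the start of S phase with Cdc45 and GINS. Polymerases, the PCNA clamp, its RFC loader and RPA then copy the strands, while ribonucleotide reductase, thymidylate synthase and thymidine kinase supply deoxynucleotides. Many of these genes are transcribed together at G1/S under E2F factors. In the intestinal epithelium they mark the cycling crypt cells, and IL-22 is a cytokine that acts on these epithelial cells through STAT3.

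The organoids came from Atg16l1 fl/fl mice (cre-negative controls, called fl/fl) or from mice that also carry villin-cre and so lack Atg16l1 in intestinal epithelial cells (called ΔIEC). The floxed allele is shared by all 4 groups, and villin-cre separates the genotypes. Cultures were left untreated or given IL-22 at 10 ng/ml for 24 h, with 4 cultures in each of the 4 groups. Stimulation began after 3 to 6 days of culture after passage. By the numbers in the labels each genotype has 2 organoid lines. In every group, replicates 1 and 2 share a line (called first) and replicates 3 and 4 the other line (called second). The p-values measure the spread between the 4 cultures of a group, in which differences within and between its 2 lines are mixed. With 2 lines in a group, they say little of the spread over further lines or mice. Unless a line block or line correlation is named, the tests take the 4 cultures of a group as independent, although pairs share a line. The p-values of the genotype comparisons, with 2 lines on each side, can therefore be too small. In the IL-22 comparisons both lines of a genotype stand on both sides, and leaving this pairing out can make p-values too large. No source used here says whether a line is 1 mouse. Strain, sex and age of the mice were not given in the labels. The paper's methods describe the Atg16l1 mice as backcrossed to C57BL/6 and give an age range of adult mice for all experiments. They do not give the sex or age of the mice behind each line.

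Gene counts summed to 2135000 to 5574860 per culture, and single members had 5 to 1368 counts in a culture. Atg16l1 had 91 to 276 counts in fl/fl and 1 to 21 counts in ΔIEC cultures (log2 fold change -3.90 untreated and -4.51 with IL-22; edgeR quasi-likelihood test, adjusted p = 1.27e-06 and 2.25e-07), as the labels say. The cultures had high levels of epithelial markers: 13 enterocyte markers summed to 3143 to 7930 CPM (counts scaled to the library size) and 8 Paneth markers to 3170 to 9576 CPM. Immune markers (10 genes) summed to 22.5 to 41.4 CPM and stromal markers (10 genes) to 1.62 to 6.40 CPM, with 2 to 4 immune and 3 to 7 stromal markers at 0 in every culture of a group.

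Replication genes were lower in fl/fl organoids treated with IL-22. All 45 members had a log2 fold change below 0 (55.3% of all tested genes did), from -1.01 for Rfc3 to -0.23 for Rfc1, and 32 of 45 were lower at an adjusted p under 0.01 (edgeR), against 10.2% of all tested genes called lower. None was called higher, against 10.6% of all tested genes. The median member was at 58.9% of its untreated level (median log2 fold change -0.76, against -0.05 over all tested genes). In 27 of 45 members all 4 treated cultures lay below all 4 untreated ones, a separation that 15.4% of all tested genes showed. These are bulk samples, in which fewer cells in S phase and less RNA of these genes per cell cannot be told apart.

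The decrease was also present in ΔIEC organoids. All 45 members were again below 0 (50.9% of all tested genes), from -1.002 for Pole to -0.03 for Rfc1, with a median log2 fold change of -0.52 (69.97% of the untreated level; -0.01 over all tested genes). At the threshold 18 of 45 were lower, against 7.65% of all tested genes, and none was higher, against 9.83%. With the line as a replicate block the count was 31 of 45, against 11.7% of all tested genes. All 4 treated cultures lay below all 4 untreated ones in 33 members (13.2% of all tested genes). The fl/fl and ΔIEC comparisons share no cultures, but they come from the same fit and share its estimate of spread. The 18 members called in ΔIEC were all among the 32 called in fl/fl, which is 100% of the shorter list and 56.25% of the longer. The overlap over all tested genes was not counted, so whether this overlap is particular to the members cannot be told. The 14 called in fl/fl alone were Cdc6, Chaf1a, Chaf1b, Gins4, Lig1, Mcm4, Pola1, Pold2, Rfc3, Rpa2, Rrm1, Rrm2, Tyms and Uhrf1, and 13 members were called in neither genotype. This list depends on the fit: with the line as a block, 10 of these 14 were also called in ΔIEC, all but Cdc6, Gins4, Pold2 and Rrm1. The block called 30 members in both genotypes, of 37 in fl/fl and 31 in ΔIEC, and Gins2 in ΔIEC alone. Of the 13 members called in neither genotype without it, the block called Orc1 and Rfc5 in both and Fen1, Mcm10 and Orc6 in fl/fl.

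**Figure D1:**
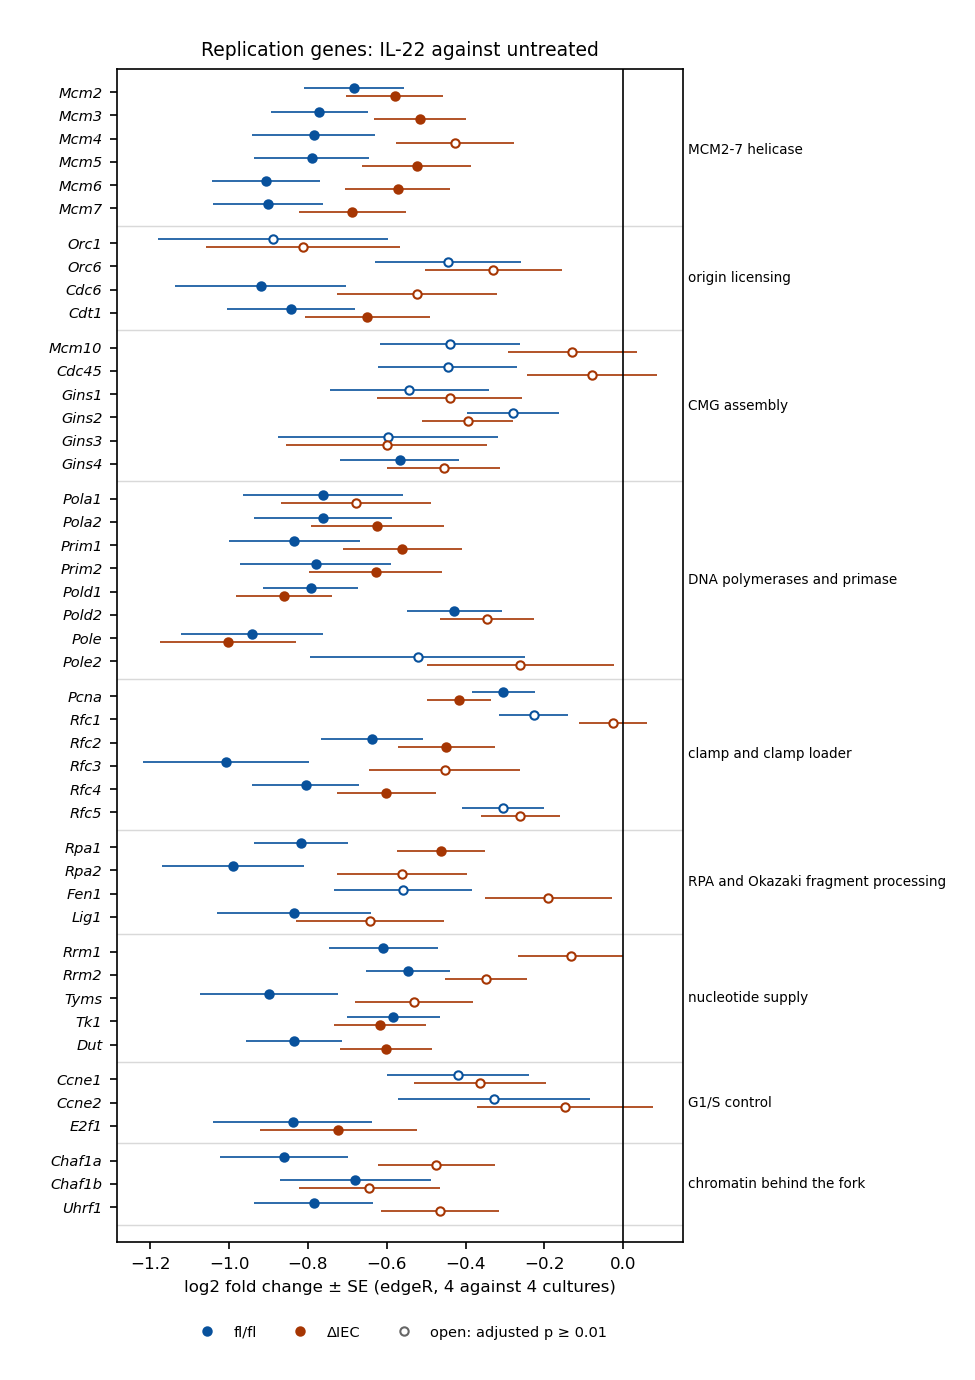
Log2 fold change (x axis) with IL-22 against untreated for each of the 45 genes, in fl/fl (blue) and ΔIEC (brown) organoids, with its standard error; filled points have an adjusted p under 0.01 and rows are grouped by role. Every point lies left of 0, and the median is -0.76 for blue and -0.52 for brown points.

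The count of calls rested on few cultures, while the direction of the median did not. In fl/fl it was 21 without untreated fl/fl replicate 4 (7.86% of all genes tested in that fit were lower) and 13 without the second fl/fl line (3.86%). In ΔIEC it was 11 without untreated ΔIEC replicate 1 (5.98% of all genes tested), and 10 and 9 without IL-22–treated ΔIEC replicates 3 and 4 (6.46% and 5.53%). It was 5 without the first ΔIEC line, against 3.62% of all genes tested. Without the second ΔIEC line it was 1, a smaller share of the 45 than the 3.23% of all genes tested. It was 28 without the first and 28 without the second fl/fl line (8.69% and 8.80%). Within each line, the mean of the 2 treated cultures was below that of the 2 untreated ones for 44 and 45 members in the first and second fl/fl line and for 42 and 45 members in the first and second ΔIEC line. The median log2 ratios in these lines were -0.60, -0.88, -0.42 and -0.58, against -0.046, -0.038, -0.005 and -0.013 over all tested genes. Both treated cultures lay below both untreated ones in 42, 44, 36 and 42 members, against 35.5%, 34.9%, 27.1% and 30.9% of all tested genes. The fits that left out a line called 13 members lower in fl/fl organoids in all 4 cases, and Pold1 alone in ΔIEC. The share of all tested genes called in all 4 cases was not counted, so whether these counts are particular to the members cannot be told.

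The MCM2-7 helicase is the ring that unwinds DNA at the fork. Its 6 subunits were all called lower in fl/fl (median log2 fold change -0.79), and 5 of 6 in ΔIEC (median -0.55). Mcm4 had -0.43 there (adjusted p = 0.0383). Mcm6 (ENSMUSG00000026355.11, chromosome 1, 128331590 to 128359664, GRCm38), the subunit with the most counts, stood at 122, 138, 191 and 194 CPM in untreated fl/fl replicates 1 to 4 and at 86.7, 66.4, 93.5 and 97.4 CPM with IL-22. In ΔIEC organoids Mcm6 was at 218, 209.9, 193 and 198 CPM untreated and at 151, 146, 130.0 and 125 CPM with IL-22. Treated and untreated cultures did not overlap in either genotype, and the log2 fold changes were -0.91 ± 0.14 (SE) in fl/fl (adjusted p = 4.40e-05) and -0.57 ± 0.13 in ΔIEC (adjusted p = 2.84e-03). Mcm7 (ENSMUSG00000029730.16, chromosome 5, 138164583 to 138172422) had 118, 123, 187 and 186 CPM untreated and 82.0, 63.3, 92.9 and 89.3 CPM treated in fl/fl, and 214, 229.8, 213 and 217 CPM and then 123, 145, 139 and 135 CPM in ΔIEC. Its groups did not overlap, with log2 fold changes of -0.90 in fl/fl and -0.69 in ΔIEC (adjusted p = 5.88e-05 and 6.64e-04). Mcm7 holds the microRNA genes Mir25, Mir93 and Mir106b on its own strand.

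Promoters of Mcm3, Mcm5, Mcm6, Mcm7 and Rfc3, the member that fell most in fl/fl, are printed because they hold words of the E2F site, and that of Pcna, which holds none, stands beside them. The windows of Mcm2 and Mcm10 hold no such word and are not printed. RefSeq windows of 300 bases (GRCm38.p6, 250 bases before to 50 after a start) were at hand for 37 of the 45 members. No window was at hand for Mcm4, Gins1, Gins2, Gins4, Prim2, Pole, Rfc2 and Ccne2. The words TTTCCCGC, TTTCGCGC, TTTGCCGC and TTTGGCGC were searched on both strands and are in capitals; words on opposite strands can overlap and then form a longer run. At least 1 word was present for 14 of the 37 members (37.8%), against 2.60% of the 27025 genes with a window. The CCAAT box, searched on both strands, was present for 22 of 37 (59.5%, against 41.1%), and overlapped an E2F word in 1 member window. A match is a run of letters and not evidence of binding. Windows are given 5′ to 3′ on the gene's strand: Mcm3 at chr1:20820263-20820562 (minus), Mcm5 at chr8:75109259-75109558 (plus), Mcm6 at chr1:128359656-128359955 (minus), Mcm7 at chr5:138171834-138172133 (minus), Rfc3 at chr5:151651159-151651458 (minus) and Pcna at chr2:132253131-132253430 (minus).
Mcm3: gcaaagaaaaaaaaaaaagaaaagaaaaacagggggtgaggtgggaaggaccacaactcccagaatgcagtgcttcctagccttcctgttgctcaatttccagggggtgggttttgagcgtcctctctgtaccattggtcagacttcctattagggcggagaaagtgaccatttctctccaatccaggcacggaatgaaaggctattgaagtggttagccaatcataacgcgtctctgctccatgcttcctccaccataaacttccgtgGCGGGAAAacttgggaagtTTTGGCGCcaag
Mcm5: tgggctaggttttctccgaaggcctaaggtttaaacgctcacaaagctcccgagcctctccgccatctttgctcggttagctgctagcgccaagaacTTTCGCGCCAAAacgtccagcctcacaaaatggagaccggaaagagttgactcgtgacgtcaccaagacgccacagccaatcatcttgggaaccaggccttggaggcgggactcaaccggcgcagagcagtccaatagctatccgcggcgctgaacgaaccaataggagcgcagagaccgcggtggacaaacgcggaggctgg
Mcm6: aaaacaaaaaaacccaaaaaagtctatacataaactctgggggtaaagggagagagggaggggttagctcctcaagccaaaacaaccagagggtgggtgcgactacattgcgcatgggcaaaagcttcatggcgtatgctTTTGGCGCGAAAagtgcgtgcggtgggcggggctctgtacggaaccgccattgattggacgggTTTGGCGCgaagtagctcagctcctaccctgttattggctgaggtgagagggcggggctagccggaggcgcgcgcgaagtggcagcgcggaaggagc
Mcm7: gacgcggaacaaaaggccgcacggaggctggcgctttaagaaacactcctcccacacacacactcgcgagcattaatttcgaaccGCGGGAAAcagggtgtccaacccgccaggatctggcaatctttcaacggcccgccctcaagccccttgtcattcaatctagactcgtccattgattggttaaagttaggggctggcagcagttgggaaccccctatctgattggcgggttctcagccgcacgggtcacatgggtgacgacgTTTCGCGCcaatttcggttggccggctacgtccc
Rfc3: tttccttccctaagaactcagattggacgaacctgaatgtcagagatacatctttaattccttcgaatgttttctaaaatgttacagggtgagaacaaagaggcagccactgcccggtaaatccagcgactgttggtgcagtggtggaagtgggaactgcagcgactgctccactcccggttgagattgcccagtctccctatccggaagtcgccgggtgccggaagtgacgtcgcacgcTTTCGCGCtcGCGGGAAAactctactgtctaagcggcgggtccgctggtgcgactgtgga
Pcna: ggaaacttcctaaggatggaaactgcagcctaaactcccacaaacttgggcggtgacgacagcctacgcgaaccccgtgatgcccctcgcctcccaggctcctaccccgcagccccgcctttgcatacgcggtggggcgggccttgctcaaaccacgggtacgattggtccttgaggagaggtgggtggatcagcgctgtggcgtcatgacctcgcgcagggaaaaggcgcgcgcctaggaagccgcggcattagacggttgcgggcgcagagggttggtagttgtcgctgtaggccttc
Mcm6 held 3 matches, Mcm3, Mcm5, Mcm7 and Rfc3 2 each, and Pcna none. The 14 members with a word (Cdc6, Cdt1, Gins3, Lig1, Mcm3, Mcm5, Mcm6, Mcm7, Orc1, Pola1, Pold1, Pole2, Rfc3 and Uhrf1) had a median log2 fold change with IL-22 of -0.81 in fl/fl organoids and -0.59 in ΔIEC organoids. The 23 with a window but no word had -0.61 and -0.46. The ranges overlapped (-1.01 to -0.52 against -0.99 to -0.23 in fl/fl), and the difference was not tested.

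Origin licensing genes load the helicase. Cdt1, which brings MCM2-7 to the origin, was called lower in both genotypes: it stood at 53.5, 49.8, 62.6 and 81.0 CPM in untreated fl/fl cultures and at 28.9, 27.8, 42.8 and 36.2 CPM in fl/fl cultures given IL-22. In ΔIEC it went from 68.8, 68.7, 77.6 and 84.3 CPM to 35.6, 55.1, 50.8 and 46.6 CPM. The groups did not overlap, with log2 fold changes of -0.84 (adjusted p = 5.15e-04) and -0.65 (adjusted p = 4.09e-03). Cdc6, the ATPase that works with ORC, was called lower in fl/fl alone (-0.92 against -0.52 in ΔIEC, adjusted p = 2.76e-03 and 0.0621). The ORC subunits Orc1 (-0.89 and -0.81) and Orc6 (-0.44 and -0.33) did not pass in either genotype; Orc1 had 2.10 to 16.98 CPM in a culture and few counts behind each value.

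Assembly of the CMG helicase was the role with the fewest calls. Of its 6 members, Gins4 alone passed in fl/fl (-0.57, adjusted p = 6.58e-03) and none in ΔIEC, with medians of -0.49 and -0.42. Mcm10, which helps to activate the helicase, stood at 30.1, 30.6, 49.4 and 50.8 CPM in untreated fl/fl cultures and at 26.9, 21.3, 35.7 and 32.7 CPM with IL-22. Its values split by line, the groups overlapped, and its log2 fold changes were -0.44 in fl/fl (adjusted p = 0.0639) and -0.13 in ΔIEC (adjusted p = 0.607). Gins2, a GINS subunit, had 43.0, 37.5, 39.9 and 42.3 CPM untreated and 34.0, 30.9, 30.97 and 39.0 CPM treated in fl/fl, and 51.2, 42.3, 49.1 and 47.8 CPM and then 27.1, 36.1, 39.6 and 40.5 CPM in ΔIEC. Its groups overlapped in fl/fl and not in ΔIEC (-0.28 and -0.40, adjusted p = 0.0756 and 0.0152). Cdc45 had -0.45 and -0.08, Gins1 -0.54 and -0.44, and Gins3, the member with the lowest level per kilobase of exon, -0.60 in both.

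The polymerases and primase copy and prime the strands, and 7 of their 8 genes were called lower in fl/fl and 5 in ΔIEC. Pold1, the catalytic subunit of lagging-strand polymerase δ, had the smallest p of the members in ΔIEC. Its levels were 55.5, 51.3, 74.3 and 77.0 CPM in untreated fl/fl cultures and 35.2, 35.3, 37.5 and 39.9 CPM with IL-22. In ΔIEC they were 60.8, 67.9, 71.2 and 71.4 CPM and then 38.9, 35.2, 41.4 and 33.6 CPM. All treated cultures of both genotypes reached at most 41.4 CPM, while no untreated culture was under 51.3 CPM; the changes were -0.79 ± 0.12 (adjusted p = 5.05e-05) and -0.86 ± 0.12 (adjusted p = 2.31e-05).

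Pole, the catalytic subunit of leading-strand polymerase ε, had the largest decrease of the members in ΔIEC. It went from 65.5, 57.3, 57.1 and 51.9 CPM to 25.1, 34.6, 27.8 and 28.1 CPM (log2 fold change -1.002 ± 0.17, adjusted p = 1.77e-04). In fl/fl it went from 28.6, 37.8, 41.7 and 60.2 CPM to 22.2, 17.5, 22.7 and 25.8 CPM (-0.94 ± 0.18, adjusted p = 4.51e-04). The groups did not overlap in either genotype. The primase subunits Prim1 (-0.83 and -0.56) and Prim2 (-0.78 and -0.63) and the polymerase α subunit Pola2 (-0.76 and -0.62) were called in both genotypes, and Pola1 (-0.76 and -0.68) and Pold2 (-0.43 and -0.35) in fl/fl. Pole2 passed in neither (-0.52 and -0.26). Pold2, the member of this role with the most counts, had 90.0, 97.0, 92.5 and 105 CPM untreated and 79.2, 76.2, 70.02 and 61.4 CPM treated in fl/fl, and 115, 111, 104 and 101 CPM and then 59.9, 104, 87.3 and 86.2 CPM in ΔIEC, where treated replicate 2 reached the untreated cultures.

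Pcna encodes the sliding clamp that holds polymerases on DNA. It had the highest level of the 45 genes (mean 108.4 CPM per kilobase of exon; next came Rrm2 with 48.7 and Pold2 with 47.5) and a small change. It stood at 275, 269, 309 and 308 CPM in untreated and at 241, 221, 257 and 219 CPM in treated fl/fl cultures, and in ΔIEC at 298, 298, 289 and 293 CPM and then at 256, 214, 202 and 212 CPM. The groups did not overlap, and the log2 fold changes were -0.30 ± 0.08 (adjusted p = 6.45e-03) and -0.42 ± 0.08 (adjusted p = 5.76e-04). The annotation names the pseudogenes Pcna-ps1 and Pcna-ps2. Reads aligned to several places were set aside in the counting (21.5% to 24.2% of the total), so Pcna could have lost reads that also align to these pseudogenes.

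The RFC subunits, which load the clamp, spread widely. Rfc3 had the largest decrease in fl/fl, from 15.5, 17.6, 28.1 and 28.1 CPM to 10.3, 7.48, 14.3 and 11.1 CPM (-1.01 ± 0.21, adjusted p = 1.07e-03), and in ΔIEC -0.45 (adjusted p = 0.0853). Rfc1, the large subunit, had the smallest change, with 78.3, 80.1, 81.6 and 89.3 CPM untreated and 67.7, 63.8, 77.0 and 72.5 CPM treated in fl/fl (-0.23, adjusted p = 0.0520). In ΔIEC it was at 108, 94.5, 97.7 and 89.7 CPM untreated and 108, 94.0, 90.4 and 92.6 CPM treated (-0.03, adjusted p = 0.861), with overlapping groups. Rfc4 (-0.81 and -0.60) and Rfc2 (-0.64 and -0.45) were called in both genotypes and Rfc5 (-0.31 and -0.26) in neither.

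RPA coats single-stranded DNA, and Fen1 and Lig1 trim and seal Okazaki fragments. Rpa1 had the smallest p of the members in fl/fl: 58.7, 60.2, 85.7 and 79.5 CPM untreated and 36.4, 35.99, 42.8 and 44.05 CPM treated (-0.82 ± 0.12, adjusted p = 3.02e-05). In ΔIEC it went from 99.0, 107, 100.1 and 102 CPM to 74.5, 84.4, 69.2 and 68.0 CPM (-0.46 ± 0.11, adjusted p = 3.86e-03). Neither pair of groups overlapped. Lig1 had 61.4, 56.6, 112 and 101 CPM untreated and 32.1, 37.2, 55.0 and 56.9 CPM treated in fl/fl, where the groups overlapped slightly through the lines, and 113, 107, 123 and 116 CPM and then 87.9, 70.4, 68.3 and 68.6 CPM in ΔIEC, where they did not. Rpa2 (-0.99 and -0.56) and Lig1 (-0.83 and -0.64) were called in fl/fl, and Fen1 (-0.56 and -0.19) in neither genotype.

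All 5 nucleotide supply genes were called lower in fl/fl, and Tk1 (thymidine kinase) and Dut (dUTPase, which keeps uracil out of DNA) also in ΔIEC. Dut stood at 59.9, 63.5, 78.9 and 88.3 CPM untreated and 40.0, 38.1, 39.4 and 45.2 CPM treated in fl/fl, and at 107, 96.2, 102 and 91.0 CPM and then 78.6, 57.9, 60.1 and 66.0 CPM in ΔIEC. The groups did not overlap (-0.84 and -0.60, adjusted p = 3.29e-05 and 5.94e-04). Tk1 went from 59.6, 63.5, 87.9 and 77.6 CPM to 47.5, 40.4, 51.8 and 51.2 CPM in fl/fl and from 94.3, 88.3, 82.4 and 81.8 CPM to 57.9, 63.1, 56.5 and 49.5 CPM in ΔIEC, also without overlap (-0.58 and -0.62, adjusted p = 7.63e-04 and 4.33e-04). Of the ribonucleotide reductase subunits, Rrm1 had -0.61 in fl/fl (adjusted p = 2.10e-03) and -0.13 in ΔIEC (adjusted p = 0.505), and Rrm2 -0.55 and -0.35 (adjusted p = 5.49e-04 and 0.0174). Whether the effects differ is tested with the interaction, given further on.

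Of the G1/S control genes, E2f1, the transcription factor that drives S-phase genes, was called lower in both genotypes (-0.84 and -0.72, adjusted p = 3.27e-03 and 9.83e-03). It had 21.3, 19.1, 28.6 and 35.6 CPM untreated and 11.9, 12.4, 18.6 and 14.1 CPM treated in fl/fl cultures, and 30.2, 29.5, 22.5 and 34.5 CPM and 15.0, 22.4, 16.9 and 15.9 CPM in ΔIEC. Treated cultures were below untreated ones in both genotypes. The E-type cyclins Ccne1 (-0.42 and -0.36) and Ccne2 (-0.33 and -0.15), which start S phase with Cdk2, passed in neither.

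Chaf1a and Chaf1b, the CAF-1 subunits that lay histones on new DNA, and Uhrf1, which guides the copying of DNA methylation, were all called lower in fl/fl (-0.86, -0.68 and -0.79) and none in ΔIEC (-0.47, -0.64 and -0.46, adjusted p = 0.0214, 0.0101 and 0.0245). Uhrf1 was at 114, 117, 183 and 199 CPM untreated and 78.0, 74.1, 105 and 95.9 CPM treated in fl/fl, and at 179, 186, 188 and 182 CPM and then 122, 149, 132 and 128 CPM in ΔIEC. Its groups did not overlap in either genotype. Chaf1a had 32.7, 33.7, 49.9 and 53.2 CPM untreated and 19.8, 21.5, 24.97 and 25.5 CPM treated in fl/fl, and 66.5, 60.5, 66.3 and 59.4 CPM and then 37.3, 57.7, 42.0 and 43.99 CPM in ΔIEC, again without overlap.

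**Figure D2:**
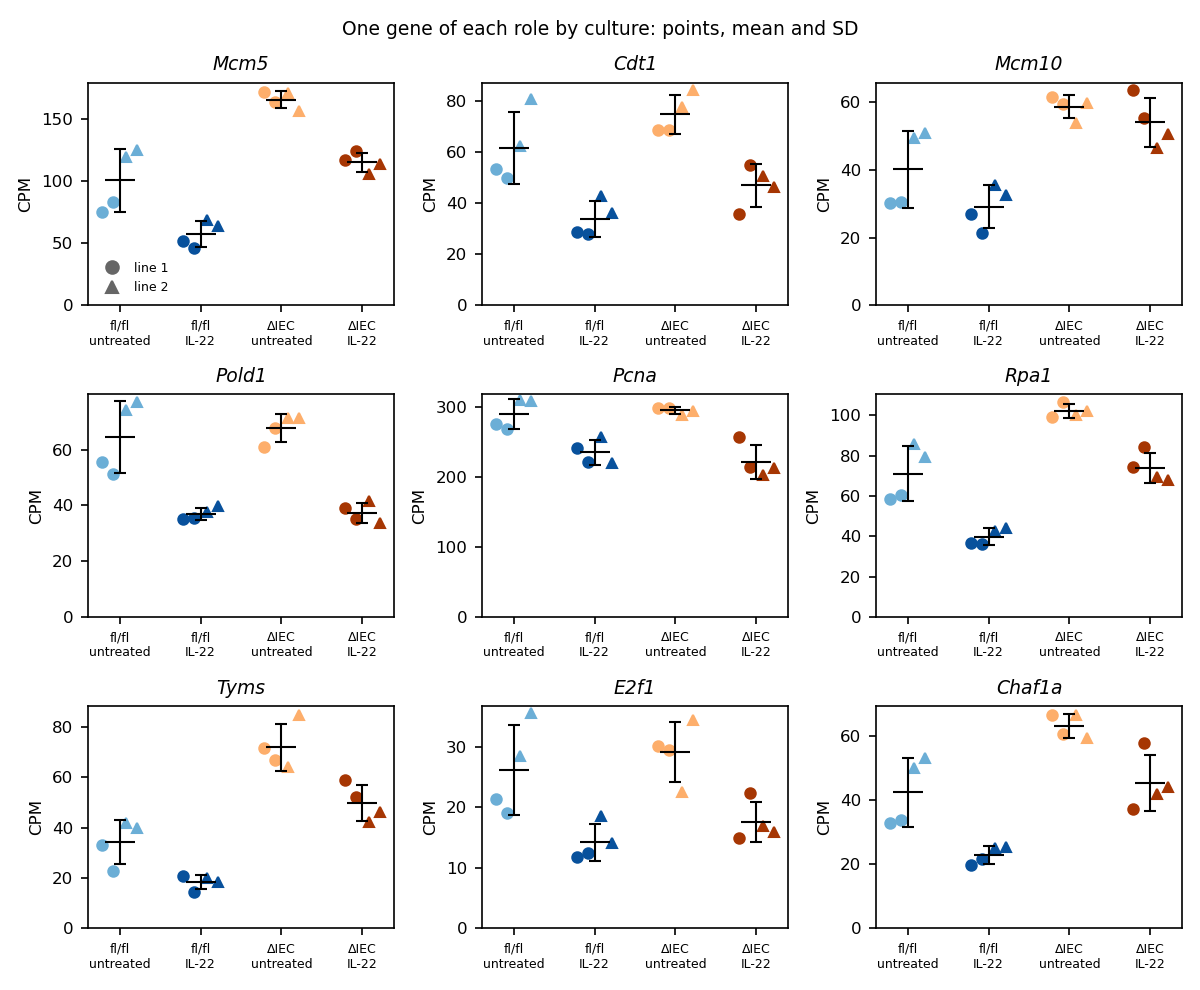
CPM (y axis, from 0) of 9 genes, 1 of each role, in the 16 cultures by group; circles are the first and triangles the second line of a genotype, and bars show the mean and SD of 4 cultures. Pold1 and Pcna have like levels in both genotypes, while Tyms, Mcm5, Rpa1 and Chaf1a lie higher in ΔIEC, and the 2 untreated fl/fl lines stand apart.

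Atg16l1-deficient organoids had higher levels of replication genes than fl/fl organoids in the untreated state. All 45 members had a log2 fold change above 0, as did 47.7% of all tested genes (0.02 for Pcna to 1.08 for Tyms, median 0.49, against -0.02 over all tested genes). At the threshold 11 of 45 were higher, against 3.78% of all tested genes, and none was lower, against 5.98%. They were Tyms, Mcm3, Mcm5, Rfc5, Rpa1, Prim2, Rfc4, Prim1, Rrm1, Chaf1a and Dut. All 4 ΔIEC cultures lay above all 4 fl/fl cultures in 19 members (10.6% of all tested genes). With IL-22, 24 of 45 were higher, against 9.91% of all tested genes, and none was lower, against 9.84%. There 44 of 45 were above 0, against 50.6% of all tested genes (median 0.68, from -0.09 for Pcna to 1.45 for Tyms). In 31 members all ΔIEC cultures lay above all fl/fl cultures (15.4% of all tested genes). Each genotype comparison shares its cultures with the IL-22 comparisons above, so the values are set side by side and not counted as separate evidence.

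**Figure D3:**
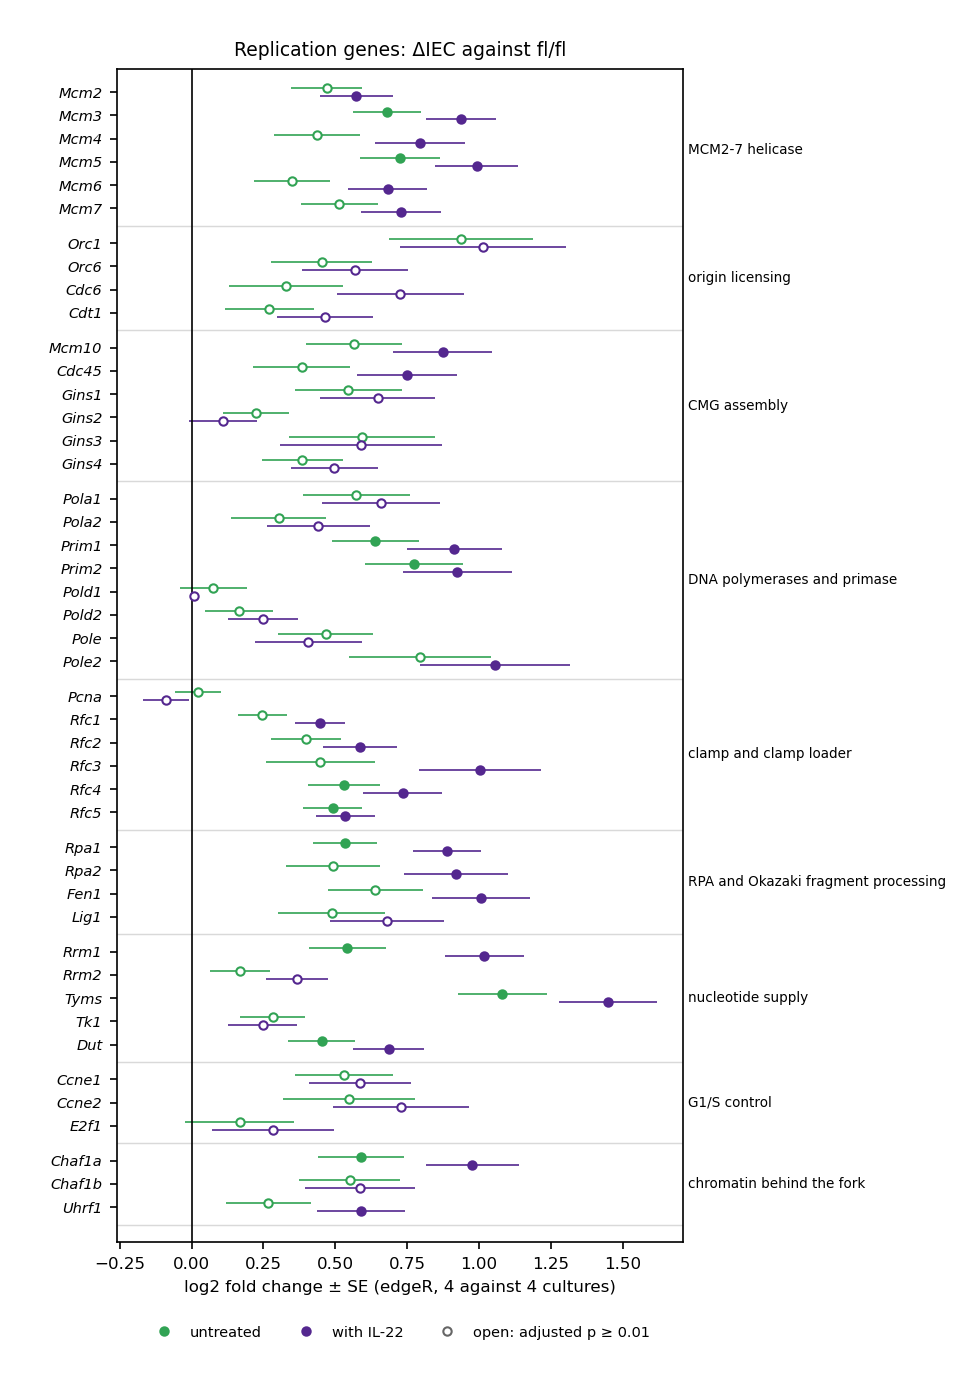
Log2 fold change (x axis) of ΔIEC against fl/fl for each of the 45 genes, untreated (green) and with IL-22 (purple), with its standard error; filled points have an adjusted p under 0.01. Apart from Pcna with IL-22 (-0.09), every point lies right of 0.

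The 2 fl/fl lines differed in these genes, and the lines are nested in the genotypes, so that line and genotype cannot be told apart by a block. In untreated fl/fl organoids the second line was above the first for 45 of 45 members, with both cultures above both in 39 (26.3% of all tested genes) and a median log2 difference of 0.55. With IL-22 it was above in 42 members, with both cultures above in 30 (25.3% of all tested genes) and a median of 0.29. The ΔIEC lines were closer: the second was above the first in 14 of 45 members untreated and in 7 with IL-22 (medians -0.05 and -0.21), with both cultures above both in 3 and 1 (21.1% and 21.6% of all tested genes).

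Other measures differed between the same fl/fl lines. In untreated cultures, goblet markers summed to 3360 and 3346 CPM in the first line and 2128 and 2209 CPM in the second, and Paneth markers to 7979 and 7360 CPM against 5899 and 5635 CPM. Enteroendocrine markers summed to 591 and 624 CPM against 371 and 382 CPM, and mitosis genes, in the other direction, to 890 and 965 CPM against 1289 and 1275 CPM. Mitochondrial genes took 1.36% and 1.22% of gene counts in the first line and 1.76% and 2.09% in the second. Their part in the line difference of the replication genes was not tested.

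Against the first fl/fl line, untreated ΔIEC organoids had all 4 cultures above in 44 of 45 members (median log2 difference 0.78), and against the second fl/fl line in 20 of 45 (median 0.22). These separations occurred in 22.4% and 18.6% of all tested genes. The count of members called higher was 2 without the first fl/fl line (Mcm5 and Tyms) and 33 without the second, beside 0.856% and 5.40% of all genes tested in those fits. It was 2 without the first ΔIEC line and 3 without the second, beside 0.979% and 2.03%. Leaving out single cultures also moved it, to 5, 5, 7 and 7 without untreated ΔIEC replicates 1 to 4 (1.76%, 2.15%, 2.31% and 2.74% of all genes tested) and to 4 and 3 without untreated fl/fl replicates 1 and 2 (2.04% and 1.70%). With IL-22 the fl/fl lines were closer to each other, and ΔIEC organoids had all cultures above in 41 members against the first (median 0.81) and in 31 against the second (median 0.57), beside 22.5% and 22.4% of all tested genes. The count of members called higher with IL-22 was 21 and 31 without the first and second fl/fl line (5.91% and 7% of all genes tested), but 7 without the first ΔIEC line and 18 without the second (3.11% and 7.38%).

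**Figure D4:**
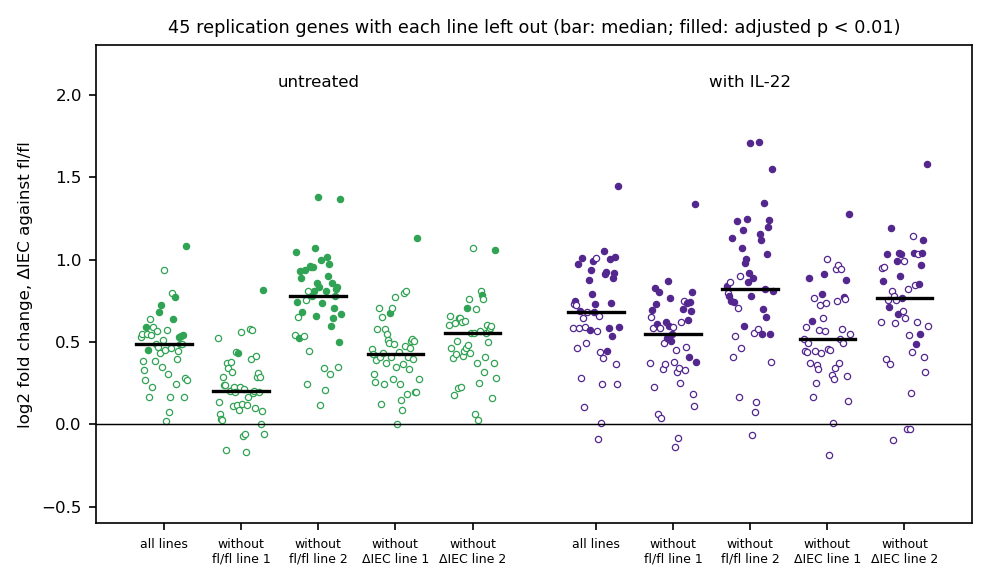
Log2 fold change (y axis) of ΔIEC against fl/fl for the 45 genes, untreated (green) and with IL-22 (purple), with all lines and with each line left out; bars are medians and filled points have an adjusted p under 0.01. Without the first fl/fl line the untreated median is 0.20, and without the second 0.78.

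Summed over the 45 genes, the order of the cultures followed both genotype and line. The sum was 2367, 2438, 3359 and 3392 CPM in untreated fl/fl replicates 1 to 4 and 1769, 1599, 2023 and 1949 CPM with IL-22. It was 3902, 3816, 3776 and 3761 CPM in untreated ΔIEC and 2925, 2982, 2582 and 2638 CPM with IL-22. IL-22–treated ΔIEC cultures thus lay above the untreated first fl/fl line and below the untreated second, and no groups other than these overlapped. The sum is led by genes with many counts, and Pcna alone gives 202 to 309 CPM of it.

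**Figure D5:**
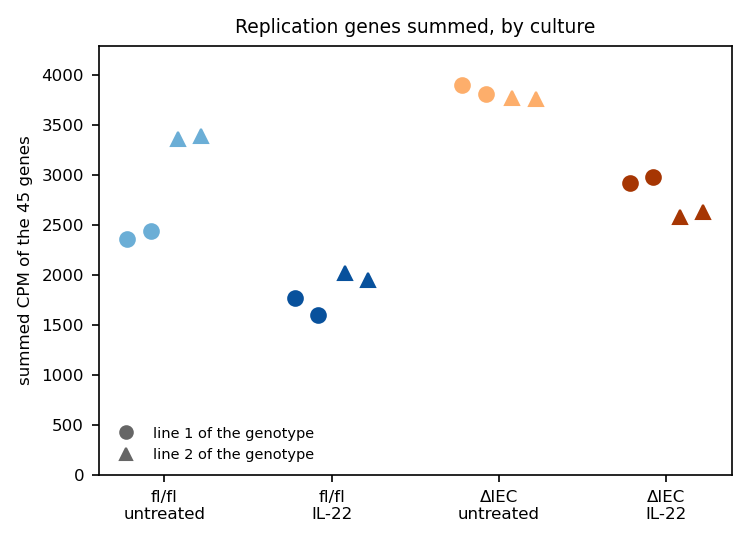
Summed CPM of the 45 genes (y axis, from 0) in each of the 16 cultures by group; circles are the first and triangles the second line of a genotype. Untreated ΔIEC cultures (3761 to 3902) are highest and IL-22–treated fl/fl cultures (1599 to 2023) lowest, and untreated fl/fl cultures split by line.

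Tyms, thymidylate synthase, differed most between the genotypes. It had 33.0, 22.7, 41.7 and 39.9 CPM in untreated fl/fl and 71.7, 66.9, 63.9 and 84.7 CPM in untreated ΔIEC cultures (log2 fold change 1.08 ± 0.16, adjusted p = 1.04e-04). With IL-22 it had 20.6, 14.3, 19.9 and 18.3 CPM in fl/fl and 58.7, 52.3, 42.3 and 46.0 CPM in ΔIEC (1.45 ± 0.17, adjusted p = 6.83e-06). The groups did not overlap, and treated ΔIEC cultures lay above untreated fl/fl cultures. Tyms was the single member called higher in untreated ΔIEC organoids in all 4 fits that left out a line (0.81 to 1.37). The share of all tested genes called in all 4 was not counted.

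Mcm5 (chromosome 8, 75109569 to 75128439) was also higher in ΔIEC in both states, with 74.8, 83.2, 119.7 and 125 CPM in untreated fl/fl and 172, 163, 171 and 157 CPM in untreated ΔIEC cultures, and with IL-22 51.9, 46.0, 68.5 and 64.1 CPM against 117, 124, 106 and 113 CPM. The genotypes did not overlap in either state, while treated ΔIEC cultures overlapped with the untreated second fl/fl line (0.73 and 0.99, adjusted p = 1.35e-03 and 5.25e-05). Mcm3 had 94.1, 89.6, 138 and 125 CPM in untreated fl/fl and 179.9, 176, 167 and 189 CPM in untreated ΔIEC cultures, and with IL-22 64.1, 62.2, 64.6 and 69.2 CPM against 126, 146, 104 and 122 CPM. It also showed no overlap (0.68 and 0.94, adjusted p = 5.93e-04 and 1.89e-05). Rpa1, whose values are given above, differed by 0.53 and 0.89 (adjusted p = 2.62e-03 and 2.30e-05). Rrm1, the large ribonucleotide reductase subunit, had 133, 149, 207 and 204 CPM in untreated fl/fl and 267, 246, 260.2 and 230.1 CPM in untreated ΔIEC cultures. With IL-22 it had 106, 88.8, 136 and 120.4 CPM against 252, 247, 203 and 214 CPM (1.02 ± 0.14, adjusted p = 2.57e-05), again without overlap. With IL-22, Chaf1a, Dut, Mcm3, Mcm5, Rpa1, Rrm1 and Tyms (7 members) were called in all 4 fits that left out a line, again without a share of all tested genes to set beside it.

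Rfc5 and Prim2 were called higher in untreated ΔIEC organoids as well. Rfc5 had 52.3, 58.2, 76.2 and 71.7 CPM in fl/fl and 92.2, 86.4, 89.3 and 93.0 CPM in ΔIEC (0.49, adjusted p = 2.39e-03), and Prim2 had 14.6, 12.5, 14.5 and 20.3 CPM against 27.1, 24.9, 28.6 and 26.2 CPM (0.77, adjusted p = 3.52e-03). Neither overlapped. A genotype difference was not detected for Pcna (0.02 ± 0.08 untreated and -0.09 ± 0.08 with IL-22, adjusted p = 0.872 and 0.419) or Pold1 (0.07 ± 0.12 and 0.01, adjusted p = 0.692 and 0.976), and their groups overlapped in both states. Tk1 (0.28 and 0.25), E2f1 (0.17 and 0.28), Gins2 (0.22 and 0.11) and Pold2 (0.16 and 0.25) did not pass either. The other members called higher with IL-22 included all 6 MCM2-7 subunits (0.57 to 0.99) and 5 of 6 clamp and loader genes, Pcna being the exception.

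The effect of IL-22 was not shown to differ between the genotypes for any of the 45 genes. The interaction (the effect in ΔIEC minus that in fl/fl) passed for 0 members in edgeR, beside 2 of 12559 tested genes (0.0159%), with 2 members at an unadjusted p under 0.05 (7.26% of all tested genes). DESeq2 and limma-voom also passed 0, with 1 and 4 members at an unadjusted p under 0.05, and the fit with line as a replicate block passed 0, with 16. The count at an unadjusted p under 0.05 depended on the first fl/fl line: it was 16 without that line, 10 and 9 without its untreated replicates 1 and 2, and 0 without untreated fl/fl replicate 3 or 4. It was 10 without a filter, and 0 to 4 with any other culture or line left out. The share of 7.26% belongs to the main edgeR fit, and the counts of the other fits have no such share beside them. Whether they are particular to the members can therefore not be told. With the block, 56 of all 12559 tested genes passed at the adjusted threshold. The interaction was above 0 for 39 of 45 members (median 0.19, against 0.03 over all tested genes, of which 54.8% were above 0). It ran from -0.12 for Gins2 to 0.56 ± 0.29 for Rfc3 (adjusted p = 0.722), and was 0.48 ± 0.19 for Rrm1 (adjusted p = 0.568, and 0.0109 with the block).

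Genes of the same processes outside the list were counted in the same fits, in which 10.2% of all tested genes were lower with IL-22 in fl/fl and 7.65% in ΔIEC, and 3.78% and 9.91% were higher in untreated and IL-22–treated ΔIEC organoids. Of 36 other fork and origin genes, 11 were lower with IL-22 in fl/fl. In ΔIEC 1 was lower (Dna2, a nuclease of Okazaki fragments, -0.76), a smaller share than that of all tested genes. Those lower in fl/fl included the fork protection pair Timeless (-1.08, adjusted p = 1.14e-04) and Tipin (-0.81) and the licensing inhibitor Gmnn (-0.77). In ΔIEC against fl/fl, 7 were higher untreated and 18 with IL-22, and none was lower. The histone chaperone subunit Ssrp1 had the smallest p of them in both states (0.45 and 0.71).

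Of 22 other nucleotide supply genes, 13 were lower with IL-22 in fl/fl and 8 in ΔIEC, with Umps of pyrimidine synthesis (-0.77 and -0.46) among those lower in both. The mitochondrial folate enzyme Mthfd2 rose in both genotypes (0.28 and 0.40, adjusted p = 2.35e-03 and 9.95e-05), and Shmt2 rose in ΔIEC (0.38, adjusted p = 3.03e-03). In ΔIEC against fl/fl, 5 were higher untreated, among them the pyrimidine enzymes Ctps (0.60) and Cad (0.69), and 11 were higher and Impdh1 lower (-0.43) with IL-22. The 1 and 2 genes that rose with IL-22 in fl/fl and ΔIEC are no larger a share than that of all tested genes (10.6% and 9.83%). The same holds for the 1 lower in IL-22–treated ΔIEC organoids (9.84%), and these calls are not read as results about the list.

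Of 24 G1/S regulators, 8 were lower and 2 higher with IL-22 in fl/fl, and 2 lower and 1 higher in ΔIEC. The 2 lower in ΔIEC are near the share of all tested genes, and the 2 and 1 higher are below it (10.6% in fl/fl and 9.83% in ΔIEC). The activator E2f2 rose in both genotypes while E2f1 fell: E2f2 had 35.5 ± 5.40 CPM in untreated and 46.3 ± 5.01 CPM in treated fl/fl, and 42.8 ± 0.767 CPM and 66.5 ± 7.74 CPM in ΔIEC organoids (SD, n = 4; 0.40 and 0.64, adjusted p = 9.80e-03 and 1.68e-04). Ccnd3, a D-type cyclin, rose in fl/fl (0.37), and Cdk6, its kinase partner, fell in both (-0.57 and -0.58). Between the genotypes, 4 of the 24 were higher and 1 lower in untreated ΔIEC organoids, and 10 were higher and 2 lower with IL-22. The lower ones are no larger a share than that of all tested genes (5.98% and 9.84%). Among the higher ones were E2f4 (0.53 and 0.45) and Tfdp1 (0.47 and 0.52). The retinoblastoma gene Rb1, which restrains E2F, was lower in ΔIEC than in fl/fl organoids in both states (-0.62 and -0.50, adjusted p = 2.91e-04 and 7.67e-04).

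Of 6 tested CDK inhibitors, Cdkn2c fell with IL-22 in fl/fl (-0.75) and Cdkn2b rose in ΔIEC (0.53). In a list this short, 1 call is near what the shares of all tested genes give (10.2% lower in fl/fl and 9.83% higher in ΔIEC). Between the genotypes, 1 was lower in untreated ΔIEC organoids, and 1 was higher and 1 lower with IL-22. These calls are likewise not read as a result about the list. Of 13 genes for S-phase chromatin, 8 were lower in fl/fl and 3 in ΔIEC, including the maintenance methyltransferase Dnmt1 (-0.80 and -0.63) and the histone acetyltransferase Hat1 (-0.91 and -0.64). Of 19 tested genes for fork repair and checkpoint, 10 were lower in fl/fl and 3 in ΔIEC. Of the S-phase chromatin genes, 2 were higher in untreated and 8 in IL-22–treated ΔIEC than fl/fl organoids. Of the fork repair genes it was 1 untreated, near the share of all tested genes (3.78%), and 9 with IL-22. None of either list was lower in ΔIEC.

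Markers of mitosis and of cell types moved in the same cultures. Of 14 mitosis genes, 9 were lower with IL-22 in fl/fl (median -0.61) and 1, Ccnb2, in ΔIEC (median -0.23), the latter near the share of all tested genes. Of the 14, 5 were higher in untreated and 13 in IL-22–treated ΔIEC than fl/fl organoids. They summed to 890 to 1289 CPM in untreated and 621 to 805 CPM in treated fl/fl, and to 1440 to 1566 CPM and 1124 to 1429 CPM in ΔIEC. The difference of the IL-22 effects passed for none of them (4 at an unadjusted p under 0.05).

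Stem cell markers (10 genes) summed to 1963 to 2367 CPM in untreated and 1118 to 1235 CPM in treated fl/fl, and to 2496 to 2755 CPM and 1156 to 1473 CPM in ΔIEC cultures, with 3 and 5 genes lower with IL-22. Between the genotypes they went both ways, with 3 higher and 1 lower in untreated and 3 higher and 3 lower in IL-22–treated ΔIEC organoids. Enterocyte markers (13 genes) summed to 6141 to 7193 CPM and then 3143 to 3736 CPM in fl/fl, and to 6056 to 7930 CPM and then 3365 to 4673 CPM in ΔIEC, with 8 and 5 genes lower and 1 higher with IL-22. Paneth markers (8 genes) were lower in ΔIEC (4 called untreated, 6 with IL-22; 3170 to 4158 against 5635 to 7979 CPM untreated) and goblet markers likewise (4 and 5 of 8 called). With IL-22 the Paneth sum was 7157 to 9576 CPM in fl/fl and 4005 to 4825 CPM in ΔIEC, with 2 of 8 genes higher in each genotype and none lower. Goblet markers summed to 2128 to 3360 CPM untreated and 2058 to 3064 CPM treated in fl/fl, and to 1517 to 2021 CPM and 1057 to 1726 CPM in ΔIEC. With IL-22 their calls went both ways, with 3 higher and 1 lower in fl/fl and 2 higher and 2 lower in ΔIEC. Enteroendocrine markers (8 of 9 tested) summed to 371 to 624 CPM and then 518 to 704 CPM in fl/fl, and to 228 to 377 CPM and then 252 to 498 CPM in ΔIEC. Of these, 2 were higher with IL-22 in fl/fl and 1 in ΔIEC, and 1 was lower in untreated and 3 in IL-22–treated ΔIEC organoids. Of all tested genes, 10.6% were higher and 10.2% lower with IL-22 in fl/fl, and 9.83% and 7.65% in ΔIEC. Between the genotypes, 3.78% were higher and 5.98% lower in untreated ΔIEC organoids, and 9.91% and 9.84% with IL-22. Single calls in marker lists this short are near these shares and are not read as results about a list. No marker of the stem, enterocyte, Paneth and goblet lists was at 0 in all cultures of a group. The part of cell composition in the changes of the replication genes was not tested.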

How the data were processed

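Paired-end RNA sequencing covered 16 organoid cultures. The authors used cutadapt for trimming, TopHat2 for alignment to GRCm38 and HTSeq for counting, and deposited raw counts of reads per gene. Versions and the strand setting of the counting were not given in the sources used here. Labels and methods name different TruSeq kits (RNA v2 and stranded total RNA), and 17 members overlap a gene on the other strand and 9 on their own strand in GENCODE release M21, so some of their reads could belong to neighbours.

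Symbols were matched to M21 without the version for 49326 of 49585 genes (99.5%). The 5 summary lines of the table (such as reads on no gene) were left out; reads on genes were 36.3% to 38.3% of the total. The median depth was 3499276 gene counts (2135000 to 5574860).

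With edgeR 4.0.16 (R 4.3.3), low counts were filtered by filterByExpr on the 4 groups, scaled by TMM (factors 0.932 to 1.07) and tested by two-sided quasi-likelihood tests on group means of all 16 cultures. The Benjamini-Hochberg adjustment covered 12559 genes, and the threshold was 0.01. Standard errors are the absolute log2 fold change over the square root of F and are left out for some changes near 0. CPM use TMM-scaled library sizes, and line ratios are log2 ratios of mean CPM without a prior count. The correlations between cultures use log2 CPM with a prior count of 2. Values per kilobase divide CPM by the summed exon length.

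Treated and untreated cultures of the same line deviated together from their group means (correlation across genes 0.26 to 0.44 in fl/fl and 0.06 to 0.32 in ΔIEC). For this reason the line was used as a block for the IL-22 effects, as an alternative. Those of different lines had -0.43 to -0.22 and -0.35 to -0.08. Deviations from a group mean cancel out within the group, so these negative values follow from the positive ones and add no separate support. Other alternatives were DESeq2 1.42.0, RLE scaling, no filter, at least 10 counts in every culture, only the groups compared, summed cultures of a line, limma 3.58.1 voom with a line correlation, an adjusted p under 0.05, and each culture and line left out. Steps were tested on simulated data.

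The members and lists were chosen with earlier results of these data known. Genes named with all values are the members with the smallest p (up to 6 per comparison and direction), the highest and lowest fold change, and the most counts in a role; from the other lists, up to 3 genes past the threshold with the smallest p per comparison and direction.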

Additional observations from a re-analysis of the deposited data

Results flagged for a closer look

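In 5 of 180 groups of 4 cultures (45 members in 4 groups), 1 culture stood far from the other 3; chance flags about 1 in 20 such groups, which is 9 here. In 4 of them it was IL-22–treated ΔIEC replicate 1, with the highest level: Pole2 at 16.6 CPM (others 11.7 to 12.2), Rfc5 at 80.6 CPM (others 73.2 to 74.1), Lig1 at 87.9 CPM (others 68.3 to 70.4) and Rrm2 at 146 CPM (others 122 to 126). In the fifth, Gins1 in untreated ΔIEC replicate 2 was at 17 CPM (others 13.3 to 13.7).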

How the results depend on the processing

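The direction of the medians held: across every setting the median log2 fold change of the members lay between -0.87 and -0.60 (IL-22 in fl/fl), -0.58 and -0.43 (IL-22 in ΔIEC), 0.20 and 0.78 (ΔIEC against fl/fl untreated), 0.52 and 0.82 (with IL-22) and 0.11 and 0.27 (interaction), and no median changed sign. Untreated, the outer values are those without the first (0.20) and the second fl/fl line (0.78). Counts of called members moved more. Those at an adjusted p under 0.05 have no share of all tested genes beside them. A looser threshold raises that share as well, so these counts are not read as a stronger result. The 32 lower in fl/fl became 1 with the cultures of a line summed (2 against 2; 1.48% of all tested genes were lower), 13 without the second fl/fl line (3.86%), and 21 to 32 with single cultures left out. The replicate block gave 37 (15.6%). The 18 lower in ΔIEC became 0 with cultures summed (2.04% of all tested genes), 28 without a filter (4.42%), 31 with line as a replicate block (11.7%), 29 with voom (10.4%), 31 at an adjusted p under 0.05, 28 without either fl/fl line, 5 and 1 without the first and second ΔIEC line, and 9 to 21 with single cultures left out. The 11 higher in untreated ΔIEC became 0 with cultures summed (0.00796%), 25 without a filter (2.94%), 25 at an adjusted p under 0.05, 2 and 33 without the first and second fl/fl line, 2 and 3 without the first and second ΔIEC line, and 3 to 16 with single cultures left out. The 24 higher with IL-22 became 1 with cultures summed (0.398%), 36 at an adjusted p under 0.05, 7 without the first ΔIEC line, and 20 to 27 with single cultures left out. With cultures summed, the members' counts for IL-22 were near or below the share of all tested genes. Summing leaves fewer samples. All groups share an estimate of spread in the main fit, so leaving out an fl/fl line can alter the p-values in ΔIEC. With IL-22 in ΔIEC, Mcm4 for example had -0.43 ± 0.15 with all lines and -0.43 ± 0.09 without the first fl/fl line. The cause of the other shifts was not tested. Interaction calls among members were 0 in every setting.

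Depth limits the members with few counts: Pole2, Gins3 and Orc1 had 5, 7 and 8 counts in their lowest culture. Genotype rests on 2 lines each, and no block separates it from the line.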

Other observations

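Ordered by level per kilobase of exon over all cultures, Pcna (108.4 CPM per kilobase), Rrm2 (48.7), Pold2 (47.5), Mcm7 (33.3) and Uhrf1 (32.8) led the 45 members, and Prim2 (2.88), Orc1 (2.49) and Gins3 (2.15) came last. The 6 MCM2-7 subunits, which form a ring with 1 copy of each, spanned 15.7 (Mcm2) to 33.3 CPM per kilobase (Mcm7). Within the RFC loader, Rfc4 stood at 18.8 and Rfc3 at 5.89 CPM per kilobase. The exon length used is that of all annotated exons of a gene, so a gene with long rare exons is given too low a value.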
